A study of Mus musculus with 6 samples.

Results

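Accessible chromatin was measured at the genes of 10 integrin subunits in mouse lung fibroblasts grown on surfaces of different stiffness. The subunits were the collagen-receptor alpha chains Itga1, Itga2 and Itga11, the shared beta chain Itgb1, the alpha chains Itga5, Itga8 and Itgav of receptors for RGD-containing matrix proteins, and Itgb3, Itgb5 and Itgb8, which pair with alpha v. Their regions were those that the deposited tables assign to one of these genes with a distance of at most 100 kb to the start site. This gave 74 of the 64217 regions in the table of plastic against 32 kPa PDMS, 1 of the 2121 regions listed as more accessible on 32 kPa than on 0.2 kPa PDMS, and 5 of the 2114 listed as more accessible on plastic than on 0.2 kPa PDMS. Both lists hold only regions with a log2 fold of at least 1 over 0.2 kPa and a false discovery rate (FDR) of at most 0.05. Of all 64217 regions, 3.31% overlapped the 32 kPa list and 3.3% the plastic list. All 10 genes had at least 1 region.

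All cultures started from primary lung fibroblasts of Col1a1-GFP transgenic mice, selected by flow cytometry for GFP, which a Col1a1 reporter places in collagen-producing cells. They grew for 8 days in 10% serum on soft silicone (PDMS) of 0.2 kPa, on PDMS of 32 kPa or on tissue-culture plastic, each with a collagen I coating (0.1 mg per mL), with no other treatment. Open DNA was then tagged by Omni-ATAC-seq, which uses a transposase to insert adapters where chromatin is accessible. There were 2 libraries of 50000 cells for each of the 3 cultures. The deposited tables hold 1 mean per culture and region, on a log2 scale of normalised reads, so neither the spread between libraries nor the sequencing depth is known and no SD can be given. The sources used here do not tell whether both libraries of one surface came from different mice, so the authors' p-values may reflect technical spread alone. The coating was itself an integrin ligand and was the same for every culture. In bulk material a region open in more cells cannot be told apart from a region more open in each cell.

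Integrins are heterodimeric receptors, 1 alpha with 1 beta chain, that join the extracellular matrix to the actin cytoskeleton and carry force in both directions. Beta 1 pairs with alpha 1, alpha 2 and alpha 11 to bind collagen and with alpha 5 and alpha 8 to bind fibronectin, nephronectin and related RGD proteins. Alpha v pairs with beta 1, beta 3, beta 5 and beta 8, and several of these pairs free TGF-beta from its latent complex, a step known to matter in lung fibrosis.

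The promoters of 4 of the genes are shown because their regions differed: a region over the Itga2 start site was listed on plastic, the Itgb1 promoter was covered along its whole length, the Itgb5 promoter held a short and weak region, and no region was given for the Itga11 promoter. Each run is the 250 bases before the RefSeq start site (build GRCm38.p6, 5′ to 3′ on the gene's strand), and capitals mark the bases that lie inside a region of the table of plastic against 32 kPa. The Itga2 run is chr13:114932101-114932350 on the minus strand, the Itgb1 run chr8:128685404-128685653 on the plus strand, the Itgb5 run chr16:33829415-33829664 on the plus strand and the Itga11 run chr9:62677605-62677854 on the plus strand.
Itga2: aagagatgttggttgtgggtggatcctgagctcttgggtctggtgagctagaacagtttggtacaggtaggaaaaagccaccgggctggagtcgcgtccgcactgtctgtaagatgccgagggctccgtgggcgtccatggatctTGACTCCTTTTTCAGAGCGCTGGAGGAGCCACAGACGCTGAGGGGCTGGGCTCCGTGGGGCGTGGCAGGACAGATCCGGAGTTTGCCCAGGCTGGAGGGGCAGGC
Itgb1: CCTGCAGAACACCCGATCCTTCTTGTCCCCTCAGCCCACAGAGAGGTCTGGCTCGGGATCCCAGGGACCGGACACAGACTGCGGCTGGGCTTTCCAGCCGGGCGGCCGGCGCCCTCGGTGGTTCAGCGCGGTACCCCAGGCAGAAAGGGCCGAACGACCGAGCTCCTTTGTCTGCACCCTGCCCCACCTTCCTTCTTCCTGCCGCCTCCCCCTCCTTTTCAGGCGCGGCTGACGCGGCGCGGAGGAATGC
Itgb5: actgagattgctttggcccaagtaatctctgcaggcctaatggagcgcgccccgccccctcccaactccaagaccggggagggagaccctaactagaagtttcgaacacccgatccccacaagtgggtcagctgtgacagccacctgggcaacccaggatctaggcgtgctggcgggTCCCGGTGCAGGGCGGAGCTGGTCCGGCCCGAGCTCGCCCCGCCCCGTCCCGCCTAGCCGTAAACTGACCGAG
Itga11: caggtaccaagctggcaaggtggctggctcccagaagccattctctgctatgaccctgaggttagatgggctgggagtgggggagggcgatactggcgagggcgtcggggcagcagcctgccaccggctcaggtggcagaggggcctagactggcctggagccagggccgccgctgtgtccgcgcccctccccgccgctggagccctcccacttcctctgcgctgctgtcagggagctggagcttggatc

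The accessible region covered 105 of the 250 bases at Itga2, 250 at Itgb1, 73 at Itgb5 and 0 at Itga11. At Itgb8, whose run is not shown, it also covered 0, because the region annotated as its promoter lay farther upstream. RefSeq promoter windows, from 250 bases before the start site to 50 after it, were matched for 9 of the 10 genes, all but Itgb3. Their GC content ran from 56.7% at Itga1 to 68.0% at Itga11, with a median of 60.7%, against a median of 52.7% over 32851 mouse promoter windows. They held 12 to 27 CpG dinucleotides, with the fewest at Itga1 and the most at Itgb1, against a median of 7. The SP/KLF motif GGGCGG, searched on both strands, occurred in 5 of the 9 windows (55.6%) and in 35.7% of all windows. Itgb5 had 3 matches, beginning 199, 63 and 34 bases before the start site, and Itga5 had 2, while Itgb1, Itgav and Itga2 had 1 each. The TEAD motif GGAATG was found only at Itgb1, 7 bases before the start site, and in 14.7% of all windows. The AP-1 motif TGANTCA, the RUNX motif TGTGGT and the CArG box of SRF matched in none of the 9 windows, and in 7.81%, 16.8% and 1.63% of all windows. The matches found did not overlap one another. A match of letters is a description of these windows and not a bound site.

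Cell type was checked on 5 marker lists. Of 10 fibroblast markers, 9 had a promoter region in the table of plastic against 32 kPa, with Lum the exception. These promoters had levels of 2.97 to 8.93 on plastic (median 5.27) and 3.76 to 8.82 on 32 kPa (median 4.88). A promoter region was present for 1 of 6 leukocyte markers (Lyz2), 2 of 5 endothelial markers (Kdr and Tek), 0 of 6 epithelial markers and 1 of 5 mesothelial and smooth muscle markers (Myh11). The endothelial promoter levels ran from 3.02 to 3.71 on plastic and from 3.08 to 3.13 on 32 kPa. The Lyz2 promoter had 4.29 on plastic and 5.01 on 32 kPa, below the fibroblast median on plastic and above it on 32 kPa. The Myh11 promoter had 5.45 on plastic and 5.25 on 32 kPa, above the fibroblast median on each surface. A region of any kind within 100 kb was present for 10 of 10 fibroblast, 4 of 6 leukocyte, 5 of 5 endothelial, 5 of 6 epithelial and 5 of 5 mesothelial and smooth muscle markers. Level is used here for log2 mean normalised reads per region. Within 100 kb, 2 fibroblast markers had a region listed over 0.2 kPa on 32 kPa and 2 on plastic, as did 2 and 2 mesothelial or smooth muscle, 0 and 2 endothelial, 0 and 1 epithelial and 0 and 0 leukocyte markers. Over all regions, 3.31% overlapped the 32 kPa list and 3.3% the plastic list. The marker counts are of genes, whose numbers of regions differ, so they cannot be set against those shares or against one another. The part of other cell types in the differences below was not tested.

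The 74 integrin regions lay mostly away from promoters. Introns held 36 of them (48.6%), intergenic DNA 28 (37.8%) and annotated promoters 8 (10.8%), with 1 each in an exon and a 5′ UTR. Over all regions of the table the shares were 37.2% for introns, 38.3% for intergenic DNA and 19.6% for promoters. The integrin regions had a median level of 4.23 on plastic and 4.41 on 32 kPa, against 4.24 and 4.17 over all regions. Their widths ran from 84 to 635 bp with a median of 198 bp, and per 100 bp of width the median level was 3.59 on plastic and 3.44 on 32 kPa, against 3.5 and 3.42 over all regions. A transposable or simple repeat was named for 7 of the 74 regions (9.46%), against 13.4% of all regions. The outermost regions inside the distance limit were both at Itgb8, 95.6 kb upstream at levels of 5.20 on plastic and 4.51 on 32 kPa, and 88.4 kb downstream at 3.02 and 3.18. The nearest outside it were an Itgb8 region 124 kb downstream, at 4.52 on plastic and 4.40 on 32 kPa, and an Itga1 region 129 kb upstream, at 3.97 and 2.78.

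**Figure D1:**
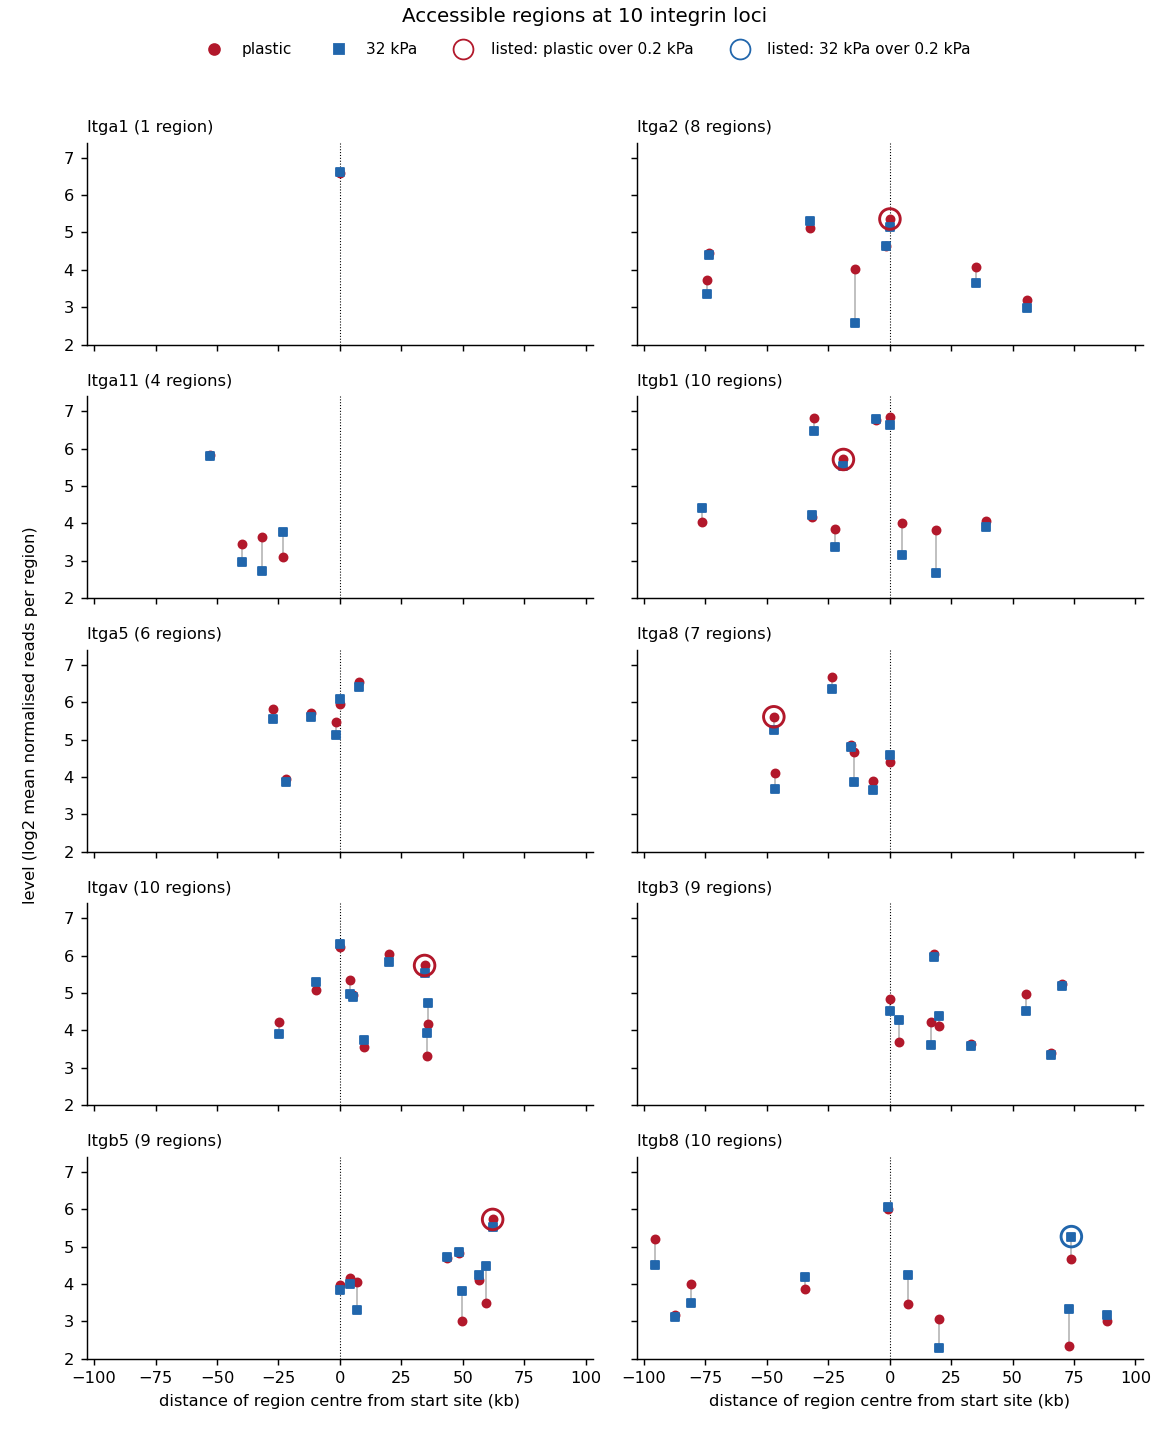
Each panel is 1 integrin gene, with the distance of a region's centre from the start site in kb on the x axis (negative is upstream) and the region's level in log2 mean normalised reads on the y axis, for plastic (circles) and 32 kPa (squares). Rings mark the regions listed as more accessible than on 0.2 kPa. A reader should see 5 rings for plastic, at Itga2, Itgb1, Itga8, Itgav and Itgb5, 1 ring for 32 kPa, at Itgb8, and ringed regions away from the start site everywhere but at Itga2.

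The 32 kPa and plastic surfaces, called the stiffer surfaces here, were first compared with the soft one. Plastic differs from PDMS in material as well as in stiffness, and no stiffness value is given for it. In its comparison with 0.2 kPa PDMS, material and stiffness cannot be told apart. Among the collagen-receptor chains, Itga2, whose product with beta 1 binds fibrillar collagen, had a more accessible promoter on plastic. Its region (chromosome 13, 114931819 to 114932205, mm10, centred 88 bases downstream of the start site) had levels of 4.23 on 0.2 kPa, 5.15 on 32 kPa and 5.36 on plastic. It was the only promoter of the 10 genes that was listed in either comparison. It rose to 5.37 on plastic, against 4.23 on 0.2 kPa, a log2 fold of 1.14 or 2.20 times (p = 0.00986, FDR = 0.0409 in the authors' deposited table). Plastic levels of the same interval differ by 0.01 to 0.02 between the deposited tables. For the listed regions named for Itga8, Itgav, Itgb1, Itgb5 and Itgb8 below, levels taken from the table of plastic against 32 kPa belong to an overlapping region with other ends, so part of their distance from 0.2 kPa can come from the interval. The level on 32 kPa was 0.92 above that on 0.2 kPa, short of the log2 fold of 1 that every listed region reached. The size of the Itga2 fold was ordinary among the 2114 regions listed for plastic, of which 55.0% had a lower fold, and 86.8% of them had a lower FDR.

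Itga1, the other collagen-binding alpha chain encoded next to Itga2 on chromosome 13, had 1 region under its own name within 100 kb. That region was the promoter (115101606 to 115102240), at 6.60 on plastic and 6.63 on 32 kPa. It was high enough to be listed on both surfaces and was listed on neither. Because a region takes the name of the nearest start site, 5 further regions inside Itga1 introns were named for Pelo, a ribosome-rescue factor gene. One of these, in intron 1 (115080077 to 115080414, 9.91 kb from the Pelo start site), had levels of 3.96 on 0.2 kPa, 5.26 on 32 kPa and 4.75 on plastic. It rose to 5.26 on 32 kPa, against 3.96 on 0.2 kPa (log2 fold 1.30, p = 0.00613, FDR = 0.0343 in the authors' deposited table). On plastic it stood 0.79 above 0.2 kPa and was not listed. Conversely, 3 of the 8 regions named for Itga2 lay inside Itga1, in introns 9 and 28, at levels of 3.73 to 5.12 on plastic and 3.36 to 5.32 on 32 kPa. Inside Itga2, 2 regions were named for the gene Mocs2, in the 3′ UTR (5.52 on plastic and 5.47 on 32 kPa) and in intron 16 (5.4 and 5.55). Both had higher levels than the Itga2 promoter on each stiffer surface, and neither was listed.

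Itga11, whose product with beta 1 is a collagen receptor of fibroblasts, had no region at its promoter. Its 4 regions were all intergenic and 23.2 to 52.9 kb upstream. The farthest, on chromosome 9 (62624690 to 62625127), was the strongest at 5.82 on plastic and 5.79 on 32 kPa, and the other 3 lay between 3.09 and 3.64 on plastic and between 2.72 and 3.76 on 32 kPa. None was listed, and 1 of the 4 reached the lowest listed level on each stiffer surface. A region in intron 26 that the tables name for Fem1b had 3.73 on plastic and 2.20 on 32 kPa, and the authors' deposited table gives it a p of 0.069.

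Itgb1, the beta chain shared by the collagen and most fibronectin receptors, had 10 regions, of which 4 reached the lowest listed level on each stiffer surface. Its promoter (chromosome 8, 128685391 to 128685883) had 6.84 on plastic and 6.62 on 32 kPa, a region 5.56 kb upstream had 6.78 and 6.79, and a region 30.9 kb upstream had 6.82 and 6.47. These were the 3 strongest Itgb1 regions, and none of them was listed. The fourth, intergenic and 18.8 kb upstream (128666607 to 128667032), was weaker, with 4.72 on 0.2 kPa, 5.53 on 32 kPa and 5.71 on plastic. This region rose to 5.72 on plastic, against 4.72 on 0.2 kPa (log2 fold 1, p = 0.00856, FDR = 0.0377 in the authors' deposited table). That fold is the lowest a listed region has, so the Itgb1 region sits at the edge of the list. On 32 kPa the same region stood 0.81 above 0.2 kPa.

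Among the alpha chains that bind RGD proteins, Itga8 and Itgav each had 1 region listed on plastic and Itga5 had none. Itga8, a nephronectin receptor chain, had 7 regions, all centred upstream of the start site. The listed one lay 47.2 kb upstream, inside the last intron of the neighbouring gene Mindy3 (chromosome 2, 12348968 to 12349226), with 4.61 on 0.2 kPa, 5.25 on 32 kPa and 5.61 on plastic. It rose to 5.62 on plastic, against 4.61 on 0.2 kPa (log2 fold 1.01, p = 0.00776, FDR = 0.0358 in the authors' deposited table). On 32 kPa it stood 0.64 above 0.2 kPa, the smallest such difference among the 5 regions listed on plastic. The strongest Itga8 region, 23.7 kb upstream, had 6.67 on plastic and 6.36 on 32 kPa and was not listed, and the promoter was weak at 4.40 and 4.59. A further 5 regions inside Itga8 introns took the name of a noncoding transcript, E030013I19Rik, and ran from 2.70 to 4.20 on plastic and from 2.88 to 4.55 on 32 kPa.

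Itgav encodes the alpha chain common to the TGF-beta-activating integrins. It had 10 regions, 7 of them in introns, and its promoter (chromosome 2, 83724259 to 83724562) had 6.23 on plastic and 6.31 on 32 kPa without being listed. A region in intron 4, 34.5 kb downstream of the start site (83758688 to 83759062), was 375 bp wide in the list and had 4.55 on 0.2 kPa there. The overlapping region of the table of the stiffer surfaces was 398 bp wide and had 5.53 on 32 kPa and 5.74 on plastic. It rose to 5.69 on plastic, against 4.55 on 0.2 kPa, with the lowest FDR of the 5 (log2 fold 1.14 or 2.20 times, p = 0.00247, FDR = 0.0191 in the authors' deposited table). The 32 kPa level of the wider region stood 0.98 above the 0.2 kPa level of the narrower one. The region in intron 2, 20.2 kb downstream, was stronger, at 6.05 on plastic and 5.82 on 32 kPa, and was not listed.

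Itga5, the classical fibronectin receptor chain, had 6 regions, 5 of them reaching the lowest listed level on each stiffer surface. They were 7.95 kb downstream in intron 3 (6.54 on plastic and 6.41 on 32 kPa), over the first exon and annotated as 5′ UTR (5.94 and 6.09), and 1.56, 11.7 and 27.0 kb upstream. The levels of the upstream 3 were 5.47, 5.71 and 5.82 on plastic and 5.12, 5.61 and 5.56 on 32 kPa. None of the 5 was listed in either comparison with 0.2 kPa. Inside Itga5 introns, 2 further regions named for Mir6963 had 3.9 and 4.15 on plastic and 3.72 and 3.57 on 32 kPa. They were not listed either.

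Of the beta chains that pair with alpha v, Itgb8 had the 1 region of the 10 genes listed on 32 kPa, Itgb5 had 1 listed on plastic and Itgb3 had none. The Itgb8 product binds latent TGF-beta with alpha v. Its listed region lay in intron 12, 73.9 kb downstream of the start site (chromosome 12, 119164235 to 119164485), with 3.89 on 0.2 kPa, 5.27 on 32 kPa and 4.68 on plastic. In the authors' deposited table it rose to 5.27 on 32 kPa, against 3.89 on 0.2 kPa, a log2 fold of 1.37 or 2.58 times (p = 0.0024, FDR = 0.0211). That fold ranked 144 among the 2121 regions listed for 32 kPa, while only 9.05% of those regions had a lower level on 32 kPa. On plastic the region stood 0.79 above 0.2 kPa. The log2 fold of plastic over 32 kPa there was -0.58 in the authors' deposited table (p = 0.17, FDR = 1), so the position of plastic below 32 kPa did not pass the authors' test. The Itgb8 promoter region, 0.567 kb upstream of the start site, had 6.0 on plastic and 6.06 on 32 kPa and was not listed.

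Itgb5 encodes a vitronectin receptor beta chain. Its region in intron 5, 62.1 kb downstream (chromosome 16, 33891626 to 33891981), was 356 bp wide in the list and had 4.61 on 0.2 kPa there. The overlapping region of the table of the stiffer surfaces was 402 bp wide and had 5.52 on 32 kPa and 5.73 on plastic. In the authors' deposited table it rose to 5.71 on plastic, against 4.61 on 0.2 kPa (log2 fold 1.10, p = 0.00326, FDR = 0.0225). The 2 regions in later introns of Itgb5 carried the name of Umps, a pyrimidine synthesis gene, whose start site was nearer. The one in intron 9 (33916597 to 33917242 in the 32 kPa list) had 6.88 on 32 kPa, against 5.87 on 0.2 kPa, in the authors' deposited table. The plastic list gives the region as 33916597 to 33917265, with 6.91 on plastic, against 5.89 on 0.2 kPa, in the authors' deposited table. Of the listed regions named for or lying inside these genes it alone was listed on both surfaces, with a log2 fold of 1.01 on 32 kPa (FDR = 0.00702) and of 1.02 on plastic (FDR = 0.00195) in the authors' deposited tables. The one in intron 11 (33941319 to 33941684) had 4.75 on 0.2 kPa, 5.91 on 32 kPa and 5.53 on plastic, and it rose by 1.17 on the log2 scale on 32 kPa (FDR = 0.0179 in the authors' deposited table). The Itgb5 promoter was weak, at 3.98 on plastic and 3.85 on 32 kPa, and below the lowest listed level.

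Itgb3, the beta chain of the vitronectin receptor alpha v beta 3, had 9 regions, all from the start site downwards. Its promoter (chromosome 11, 104607985 to 104608195) had 4.83 on plastic and 4.51 on 32 kPa, below the lowest listed levels. The strongest region lay in intron 2, 18.2 kb downstream (104626026 to 104626351), at 6.04 on plastic and 5.96 on 32 kPa. Regions 70.1 and 55.4 kb downstream had 5.24 and 4.97 on plastic and 5.18 and 4.53 on 32 kPa. None was listed.

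**Figure D2:**
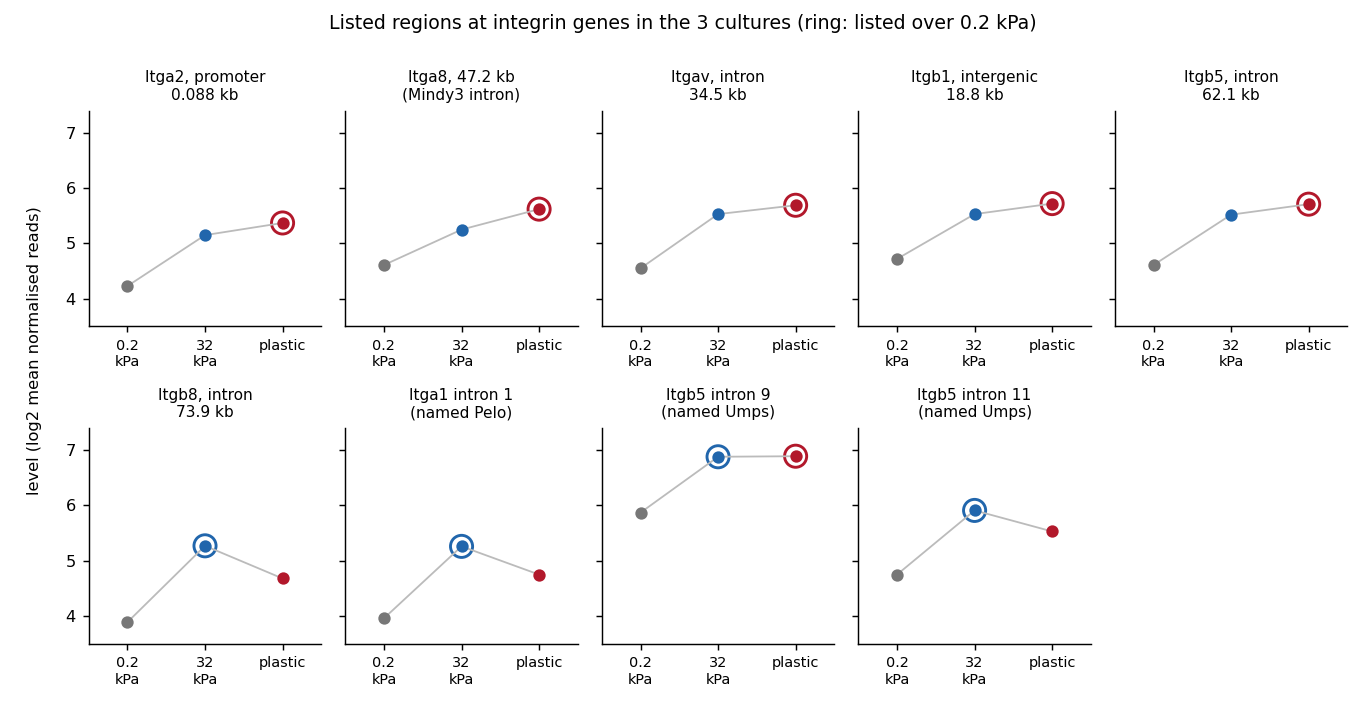
Levels in log2 mean normalised reads (y axis) on 0.2 kPa, 32 kPa and plastic (x axis) for the 6 listed regions named for an integrin gene and for 3 listed regions inside Itga1 and Itgb5 that the tables name for Pelo or Umps; each point is the authors' mean of 2 libraries, and rings mark the culture on which a region was listed over 0.2 kPa. In all 9 panels 0.2 kPa is lowest, which the listing fixes for the ringed culture, and where 1 culture is unringed it stands 0.64 to 0.98 above 0.2 kPa, in 5 of those panels over an overlapping region with other ends.

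The counts were then set beside those over all regions. Of the 74 regions, 1 (1.35%) overlapped a region listed for 32 kPa and 5 (6.76%) a region listed for plastic, against 3.31% and 3.3% of all 64217 regions. Weak regions were absent from both lists, whose lowest level was 4.97 on 32 kPa and 4.94 on plastic. Of the integrin regions at or above those levels, 1 of 25 (4%) was listed for 32 kPa and 5 of 27 (18.5%) for plastic, against 12.5% and 11.7% of all regions that high. These are descriptions, the counts are small, and both lists share the 0.2 kPa libraries. The difference between the 1 and the 5 was not tested. The 5 regions listed on plastic stood 0.64 to 0.98 above 0.2 kPa on 32 kPa as well, and the Itgb8 region 0.79 above it on plastic. The 0.2 kPa level in those differences is the one that served to list the region, and apart from Itga2 the intervals compared differ in their ends. Of the 8 promoters, 5 were high enough on each stiffer surface, and 1 of them, Itga2, was listed on plastic and 0 on 32 kPa. For the 24 and 22 strong regions that were not listed, a rise smaller than a log2 fold of 1, a change that missed the FDR, or a fall cannot be told apart.

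Plastic and 32 kPa were next compared directly. No integrin region passed the authors' test between them. In the authors' deposited table the FDR was 1 at all 74, as it was at all 64217 regions, so 0 regions (0%) had an FDR of at most 0.05. At an unadjusted p of at most 0.05 there were 0 of the 74, against 370 of all regions (0.576%), and no test of another tool could be run on culture means. The lowest p was 0.0712, at an Itga2 region 13.9 kb upstream with levels of 4.01 on plastic and 2.58 on 32 kPa, a log2 fold of 1.43 in the authors' deposited table. The median log2 fold of plastic over 32 kPa was 0.09 (interquartile range across regions -0.13 to 0.36), against 0.05 (-0.19 to 0.33) over all regions. Plastic had the higher level at 48 of the 74 (64.9%) and at 55.0% of all regions.

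Folds were larger at weaker regions, as they were over the whole table. At the 39 integrin regions at or above the median level of all regions the median size of the log2 fold was 0.20 and the largest 0.81, against 0.18 at all such regions. At the 35 weaker ones the median size was 0.43 and the largest 1.43, against 0.38. The 3 integrin regions with a size of at least 1 were all below that median level. Besides that at Itga2 they were an Itgb1 region in intron 1 (3.82 on plastic and 2.67 on 32 kPa, log2 fold 1.14, p = 0.139 in the authors' deposited table) and an Itgb5 region in intron 5 (3.48 and 4.49, log2 fold -1.01, p = 0.101). Such sizes made up 4.05% of the integrin regions and 4.68% of all regions. By gene, the median log2 fold ran from -0.11 at Itgb8 to 0.31 at Itga8. Plastic was higher at 7 of 8 Itga2, 6 of 7 Itga8, 5 of 6 Itga5, 7 of 9 Itgb3 and 3 of 4 Itga11 regions. At Itgb1 it was higher at 7 of 10 regions, at Itgav 5 of 10, at Itgb5 4 of 9, at Itgb8 4 of 10 and at Itga1 0 of 1. Over all regions of the comparison, plastic was higher at 55%. Regions of a locus are not replicates, and no gene had a region past the authors' threshold.

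**Figure D3:**
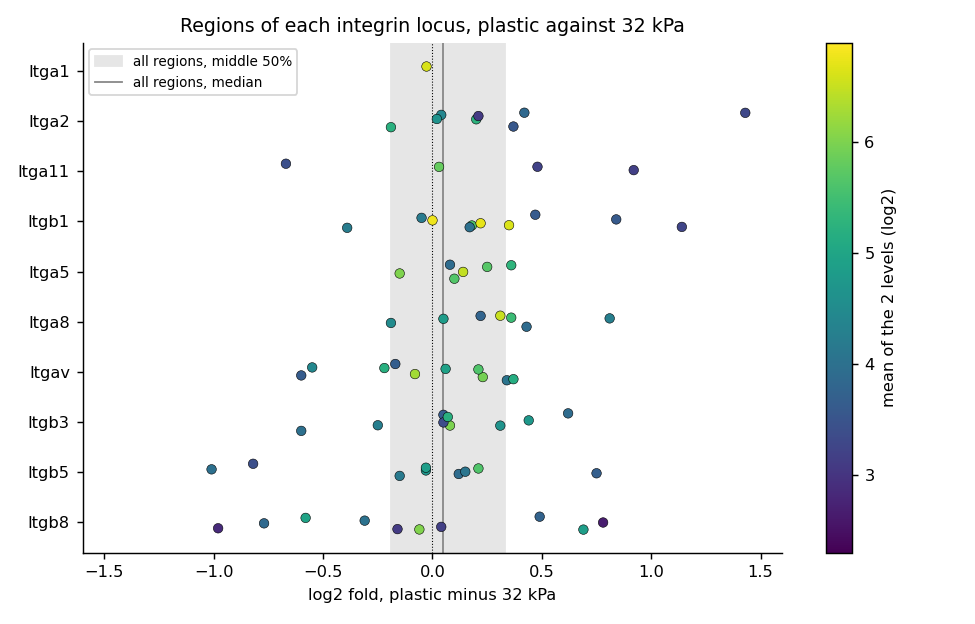
Log2 fold of plastic over 32 kPa (x axis) for each region of the 10 integrin genes (y axis), coloured by the mean of the levels in log2 normalised reads; points are spread vertically only for legibility. The grey band and line give the middle 50% (-0.19 to 0.33) and the median (0.05) of all 64217 regions, and 3 points, at Itga2, Itgb1 and Itgb5, lie beyond a log2 fold of 1 in size.

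Promoter levels lay close together on the stiffer surfaces and spread more widely among the genes. Their log2 folds of plastic over 32 kPa ran from -0.19 at Itga8 to 0.31 at Itgb3, with a median of 0.04, against -0.01 over all 12568 promoter regions. Per 100 bp of width, the level was highest at Itgav, with 4.63 on plastic and 4.71 on 32 kPa, followed on plastic by Itgb1 at 4.54, Itgb8 at 4.36, Itga1 at 3.93, Itgb3 at 3.75, Itgb5 at 3.57, Itga2 at 3.41 and Itga8 at 3.32. Among all promoter regions on plastic these per-100-bp levels ranged from percentile 13.7 for Itga8 and 17.4 for Itga2 to 81.8 for Itgb1 and 84.9 for Itgav. On 32 kPa the percentiles were 25.8, 11.2, 71.1 and 86.3 for the same genes. Whether neighbours in this order differ beyond the spread of the libraries could not be assessed from means, and the order on 32 kPa differed at Itgb1 and Itgb8 and among the lowest 4. The Itga2 promoter, listed on plastic over 0.2 kPa, was among the lowest per 100 bp, and those of Itgav and Itgb1, the highest on plastic, were not listed.

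**Figure D4:**
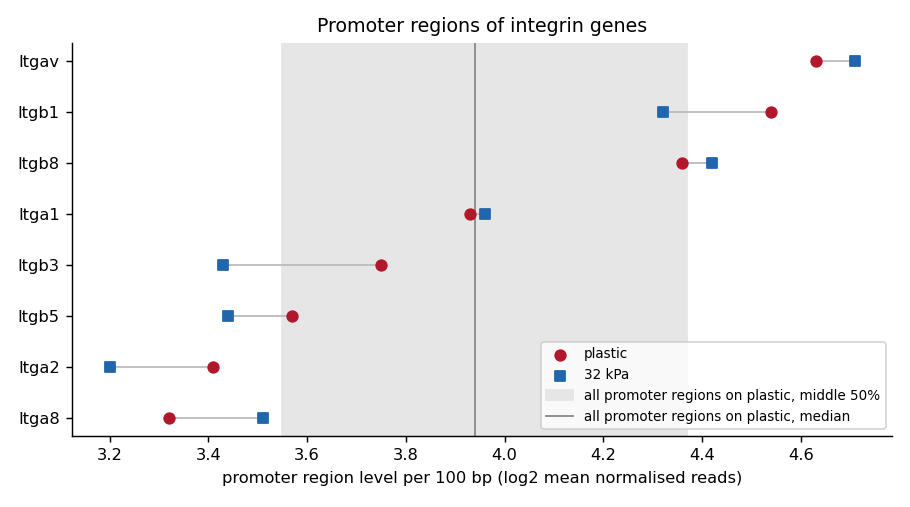
Level of each integrin promoter region per 100 bp of its width, in log2 mean normalised reads (x axis), on plastic (circles) and 32 kPa (squares), ordered from top to bottom by the value on plastic. The grey band spans the middle 50% of all 12568 promoter regions on plastic (3.55 to 4.37) around their median of 3.94, and on plastic Itgav and Itgb1 lie above the band while Itga2 and Itga8 lie below it. On 32 kPa, set against the same band, Itgav and Itgb8 lie above it and Itga8, Itgb5, Itgb3 and Itga2 below it. Itga5 and Itga11 had no region annotated as a promoter. The Itga5 region over the first exon, annotated as 5′ UTR, is not shown.

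The other genes of the pathway were counted in 3 lists. Of 16 other integrin subunits, 11 had a region within 100 kb, 32 regions in all, and 1 gene was listed in each comparison. It was Itgb6, the beta chain of the epithelial TGF-beta-activating integrin alpha v beta 6, through overlapping regions in its first intron. On chromosome 2 these ran from 60698154 to 60698432 in the 32 kPa list and from 60698157 to 60698513 in the plastic list. In the authors' deposited tables the first had 5.67 on 32 kPa, against 4.51 on 0.2 kPa (log2 fold 1.16, FDR = 0.0262). The second, which is wider, had 5.82 on plastic, against 4.68 on 0.2 kPa (log2 fold 1.14, FDR = 0.0173). Levels of the first and second are therefore not of the same interval. The remaining subunits of this list, among them those of leukocytes and platelets, were not listed, and those without a region could not have been. The share of regions listed was 3.12% for each stiffer surface.

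Activators and adaptors at the cytoplasmic face of integrins gave 2 of 19 measured genes on 32 kPa, the tensins Tns1 and Tns2, and 1 of 19 on plastic, the focal adhesion kinase gene Ptk2. The Tns2 region, in its first intron, rose to 6.73 on 32 kPa, against 5.71 on 0.2 kPa, in the authors' deposited table (log2 fold 1.02, FDR = 0.0109). The listed share of the 122 regions was 1.64% on 32 kPa (2 regions) and 0.82% on plastic (1 region), against 3.31% and 3.3% of all regions. These counts are small, the levels of the regions were not taken into account, and the difference was not tested. Talins, kindlins, vinculin and integrin-linked kinase were not listed. Ligands and latent TGF-beta genes gave 3 of 13 on 32 kPa (Col1a2, Tgfb1 and Tgfb2) and 3 of 13 on plastic (Col1a1, Col1a2 and Tgfb2), with 3.85% and 4.81% of 104 regions. Tgfb1 encodes the growth factor that alpha v integrins release. The accessibility of a region in its first intron rose to 5.91 on 32 kPa, against 4.73 on 0.2 kPa, in the authors' deposited table (log2 fold 1.18, FDR = 0.0151). No Tgfb1 region was listed for plastic. Overlapping regions in the first intron of Tgfb2 were listed on both stiffer surfaces. Their log2 folds in the authors' deposited tables were 1.10 on 32 kPa (FDR = 0.0459) and 1.40 on plastic (FDR = 0.00677). In the comparison of plastic with 32 kPa, the 3 lists had median log2 folds of 0.04, -0.01 and 0.04, and 0 regions at an unadjusted p of at most 0.05.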

How the data were processed

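Omni-ATAC-seq gave 6 libraries from 3 cultures. DiffBind, MACS2, Picard and BWA are named, without versions, together with build mm10, per the submitters' processing notes, and transposase shift, peak merging and scaling are not given in the sources used here. Per the file headers, the deposited levels and folds are on a log2 scale: means of normalised reads per culture, and their differences. Each p-value and FDR was computed by the authors and deposited. Gene names, distances and annotations are those of the tables. The tables against 0.2 kPa call their sides Control and Treat. Control equalled the 32 kPa level at each of 643 shared intervals and lay 0.01 to 0.02 above the plastic level at 653, and was read as the stiffer culture. Both tables list only folds of at least 1 with an FDR of at most 0.05. Their starts count from 0 and were raised by 1. The table of plastic against 32 kPa repeats its header once, and that row was removed.

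Overlap needed 1 bp (a search checked on simulated intervals), and the level on the remaining culture came from the overlapping region of the table of plastic against 32 kPa. Regions in a transcript of a gene but named for another were found through RefSeq accessions. Level per 100 bp divides reads by region width. Described in full were promoters, the strongest region of each gene and listed regions. The genes and lists were chosen with earlier results of these data known. No test was refitted, since the tables hold means, and depth is unknown. Versions were matplotlib 3.10.9, scipy 1.17.1, numpy 2.4.6, pandas 2.3.3 and Python 3.11.15. Sequences are from RefSeq (GRCm38.p6). Alternatives were other distances, FDR limits, overlaps, levels and gene assignments.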

Additional observations from a re-analysis of the deposited data

How the results depend on the processing

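The count of regions listed for 32 kPa moved from 1 to 0 within 10 kb of the start site, to 0 with an FDR of at most 0.01 and to 4 when regions inside transcripts of the 10 genes were added, and the listed share moved from 1.35% to 0 within 10 kb. The count for plastic moved from 5 to 1 within 10 kb and to 0 with an FDR of at most 0.01, and the share from 6.76% to 18.5% among regions high enough to be listed. The other 16 of 23 alternatives kept a count within 1.5 times, and a share or median within its 95% binomial interval (over regions, which are not replicates). Among these 16, the settings that count regions differing between plastic and 32 kPa by FDR could only give 0. No region of the whole table passed any FDR limit used, so those settings say nothing about stability. The median log2 fold of plastic over 32 kPa ran from 0.04 to 0.09. No setting gave a region that differed between plastic and 32 kPa, which only the setting with an unadjusted p could have done. No paired analysis was possible because the tables hold culture means, and for the same reason no library could be left out. Counts rest on 1 to 6 regions, and no region with a level below 4.94 was listed.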
